A study of Homo sapiens with 31 samples.

Results

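Baseline translation was measured in HEK293 T-REx cells, an established human kidney-derived line built for inducible transgenes, of the genotype that the labels call Naive. The 4 libraries were chosen by their labels, out of 31 in the series: 2 ribosome profiling libraries of naive cells in DMSO, the solvent used as the control for the mTOR kinase inhibitor PP242, and 2 RNA-seq libraries of naive cells, whose labels give no treatment. The wider study knocked out EIF4A1 or EIF4A2, tagged either protein with a streptavidin-binding peptide (SBP) for RNA pulldown, and added PP242. From it, this comparison also used 4 libraries of EIF4A1 knockout (KO) cells (footprints in DMSO and RNA-seq, 2 each), 4 footprint libraries of EIF4A2 KO cells (2 in DMSO, 1 at 1 µM and 1 at 10 µM PP242, given for 30 min), and 8 pulldown and input libraries of cells expressing SBP-eIF4A1 or SBP-eIF4A2. All of them were HEK293 T-REx cells. RNA-seq, input and pulldown libraries were made with a stranded kit that selects polyadenylated mRNA, and footprint libraries from nuclease-protected fragments depleted of rRNA, so the ratio also carries differences between assays. Since the RNA-seq labels name no DMSO, assay and solvent cannot be told apart. The labels do not say whether replicates came from separate cultures or whether a knockout line was 1 clone, so p-values measure only the spread between these libraries.

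In ribosome profiling, RNA that a ribosome covers survives nuclease digestion and is sequenced as a footprint. The footprints on a coding region, divided by the RNA of the same region, give its translation efficiency: how densely each copy of an mRNA is loaded with ribosomes. Initiation is the step at which most mRNAs are thought to be controlled. The helicases eIF4A1 and eIF4A2 act there, unwinding mRNA so that the small ribosomal subunit can bind and scan. A high ratio can come from fast initiation or from slow elongation, and the ratio alone does not tell these apart.

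The files list counts per Ensembl transcript and pair none of them with a gene. The gene tables at hand list no transcript IDs, so no gene is named, the lists of genes and the cell type markers chosen for this comparison were not applied, and no sequence is printed. Transcripts are described by counted length, level and behaviour in other libraries, and 4 at the ends of the scale are given by ID. Rows with equal counts in all 31 files were collapsed. To approach 1 transcript per locus, those whose counts correlated closely with a kept neighbour were then dropped. The rule is approximate, and a locus can still be counted more than once. A correlation of 0.9 was used, and 0.7 would have left 22948 transcripts. The rule as used left 35499 transcripts. The naive footprint libraries held 5510071 and 6390350 counts over them, and the naive RNA-seq libraries 21631521 and 20278780.

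Footprints followed RNA closely, with a wide spread around that relation. Among 24253 transcripts with a counted length of at least 20, footprint density and RNA density (counts per unit of length) had a Spearman rho of 0.849 across transcripts. In 7794 transcripts with at least 100 counts in each of the 4 libraries, rho was 0.855 and Pearson's r of the log2 densities 0.877. Transcripts are not independent replicates, so these are descriptions. The limit of 100 counts acts mainly on footprints: 7894 transcripts reached it in both footprint libraries and 14866 in both RNA-seq libraries, so this set leans towards high ratios. The log2 footprint-to-RNA ratio of those 7794 transcripts had an SD of 0.90. The part of that SD which the replicates account for was 0.094, from an SD of 0.15 between the footprint libraries and 0.11 between the RNA libraries. Replicate error thus accounted for a small part of the spread between transcripts. From percentile 5 to percentile 95 the ratio ran from -1.14 to 1.75, a 7.41-fold range.

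The ratio was tested for 24501 transcripts with edgeR's quasi-likelihood test, and a transcript was called at a Benjamini-Hochberg adjusted p under 0.05. A ratio of 0 on the log2 scale is the centre set by the scaling between assays (TMM), so "higher" and "lower" are relative to the other transcripts and not to an absolute rate. By this test 7701 transcripts had more footprints than their RNA predicts and 8177 had fewer, which is 31.4% and 33.4% of those tested. Past a 2-fold difference, 3471 transcripts were called higher (14.2%) and 4477 lower (18.3%). These are named here the efficiently and the poorly translated transcripts. The other 10998 transcripts of the 35499 had too few counts to be tested.

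The efficiently translated transcripts held 8.83% of the RNA counts and 24.4% of the footprint counts. The poorly translated ones held 19.9% of the RNA counts and 6.21% of the footprints. In the first group the median level was 3.53 CPM (counts scaled to library size and TMM factor) of RNA and 12.4 CPM of footprints. In the second it was 5.79 CPM of RNA and 1.67 CPM of footprints. Both groups were defined by the ratio in these same libraries, so the direction of these differences was fixed by the choice. The values describe the size of the groups only. The split between higher and lower depends on where the scaling puts 0. It also depends on which transcripts are counted. The 7794 transcripts chosen mainly by their footprints had a median of 0.25, with 1379 called over 2-fold higher and 516 lower, and 885 and 891 when scaled on themselves. In 13051 tested transcripts with at least 100 reads in both SBP-eIF4A1 inputs, which enter no naive ratio, the median was -0.0074, with 1573 called over 2-fold higher and 2009 lower.

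**Figure D1:**
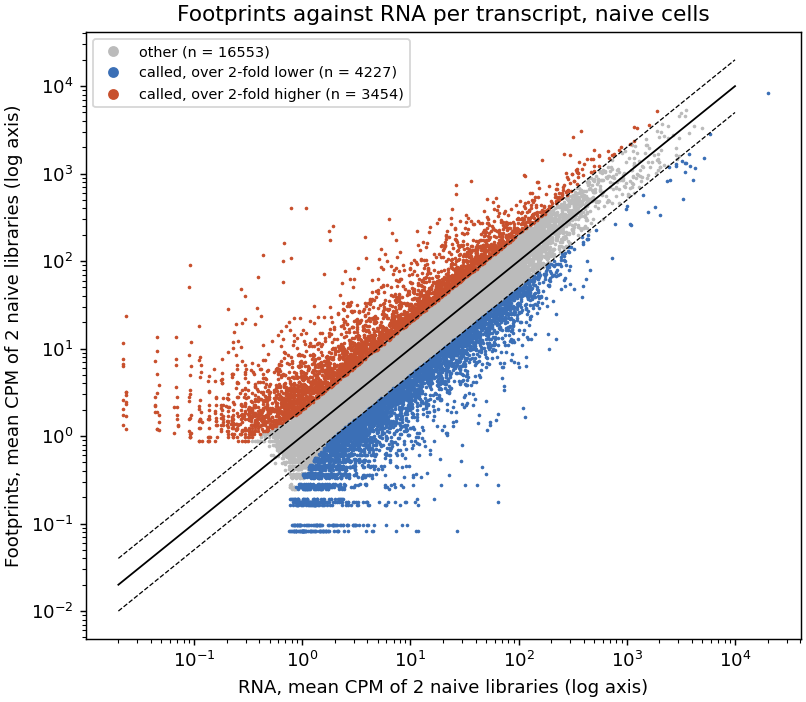
Mean footprint CPM against mean RNA CPM for 24234 tested transcripts with a count in both assays in the naive libraries, both on log axes. The solid line is a ratio of 1 and the dashed lines a 2-fold difference either way, with 3454 transcripts called over 2-fold higher in red and 4227 called lower in blue.

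Among called transcripts with a mean over both assays of at least 10 CPM and no overlap between the assays, the highest ratios belonged to transcripts with almost no RNA-seq reads. ENST00000290378.6, with a counted length of 368, had 436 and 597 footprints in the naive libraries (82.9 and 98.6 CPM) and 2 RNA reads in each RNA-seq library (0.088 and 0.094 CPM). Footprints exceeded RNA 1002-fold, with a 95% exact binomial interval from 390.4 to 3686 that covers counting error only (fitted log2 ratio 9.83, edgeR adjusted p 7.93e-43). ENST00000304801.6, with a counted length of 408, had 118 and 151 footprints (22.4 and 24.9 CPM) against 0 and 1 RNA read. With 1 RNA read in all, its ratio has an interval from 185.8 to 41396 (edgeR adjusted p 2.01e-30). No overlap between the assays was a condition of the selection, and 20108 of the 24501 tested transcripts met it.

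Both had many footprints and at most 1 RNA-seq read per library in EIF4A1 KO cells too. In EIF4A1 KO cells ENST00000290378.6 had 94.9 and 96.2 CPM of footprints with 1 and 0 RNA reads, and ENST00000304801.6 had 22.5 and 23.7 CPM with 0 and 1 read. In EIF4A2 KO cells in DMSO their footprints stood at 85.6 and 95.4 CPM and at 29.7 and 26.5 CPM. The inputs held more RNA of ENST00000290378.6 than RNA-seq did, at 2.08 and 1.07 CPM in SBP-eIF4A1 cells and 2.0 and 1.13 CPM in SBP-eIF4A2 cells. ENST00000304801.6 had 1 and 2 reads in the SBP-eIF4A1 inputs and 4 and 4 in the SBP-eIF4A2 inputs. With the SBP-eIF4A1 inputs in place of the naive RNA-seq libraries, the fitted log2 ratios were smaller, 5.94 and 7.69. Whether they share reads with near-identical copies was not tested. Among 7894 transcripts with at least 100 footprints in both naive libraries, ENST00000304801.6 was the 1 with at most 3 RNA reads in all.

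At the other end of the same selection were transcripts with many RNA reads and no footprint. ENST00000429738.1, with a short counted length of 39, had 734 and 848 RNA reads (32.3 and 40.01 CPM) and 0 footprints in both naive libraries. Against a floor of 3 counts over both libraries, its footprints were at least 136-fold lower than its RNA (edgeR adjusted p 1.06e-27). Cells without EIF4A1 gave it 633 and 559 RNA reads with 0 and 1 footprint, and in EIF4A2 KO cells in DMSO 0 and 0 footprints.

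ENST00000589042.5 has the longest counted region of any transcript with reads, 35982. It had 747 and 725 RNA reads (32.9 and 34.2 CPM) and 0 footprints, 126-fold lower with the same floor (edgeR adjusted p 2.56e-28). The interval of its ratio reached up to 0.0097. EIF4A1 KO cells gave the same picture, with 720 and 683 RNA reads and 0 and 0 footprints. The inputs did not: this transcript had 8 and 5 reads in the SBP-eIF4A1 inputs (0.59 and 0.36 CPM) and 4 and 3 in the SBP-eIF4A2 inputs (0.24 and 0.17 CPM). ENST00000429738.1 was also lower there, at 5.93 and 5.19 CPM and at 10.8 and 10.4 CPM, but was still counted. So the RNA in the denominator was abundant in the RNA-seq libraries of 2 lines and, for ENST00000589042.5, nearly missing from the inputs of 2 others.

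**Figure D2:**
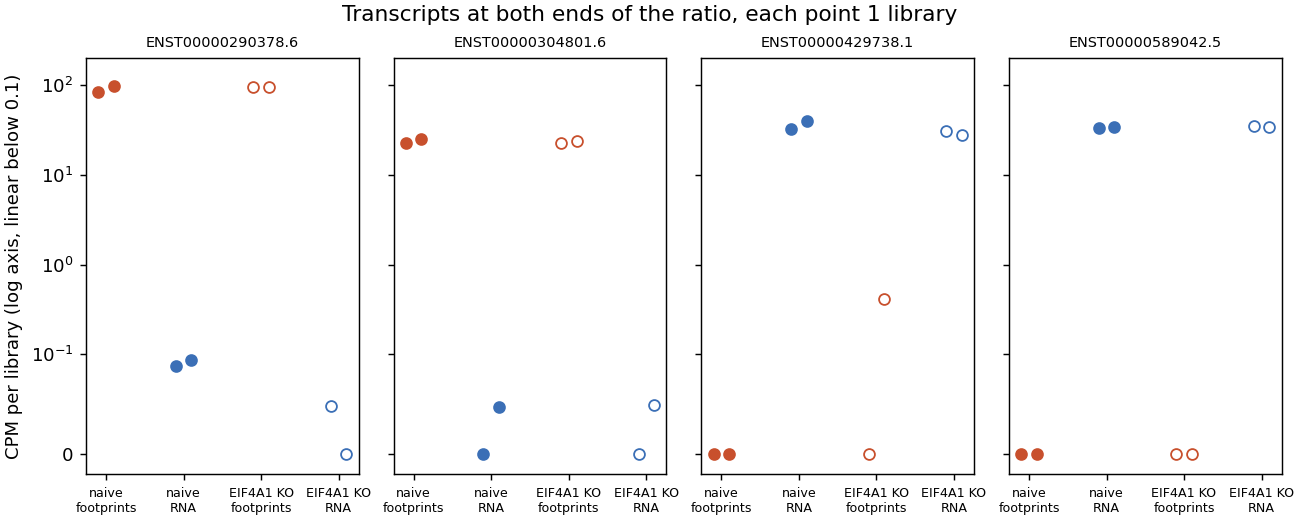
CPM in each naive (filled) and EIF4A1 KO (open) library for the 2 transcripts with the highest and the 2 with the lowest ratio among calls with a mean over both assays of at least 10 CPM and no overlap, footprints in red and RNA in blue, on a log axis that is linear below 0.1. The first pair sits above 20 CPM in footprints and below 0.1 CPM in RNA, and the second pair above 25 CPM in RNA and below 0.5 CPM in footprints.

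This loss of footprints was rare but went beyond those 2 transcripts. Of 14866 transcripts with at least 100 RNA reads in both naive RNA-seq libraries, 30 had no footprint in either naive library, and 14 of those had none in any of the 12 ribosome profiling libraries of the series. At a log2 ratio of 0 they would have had between 53.6 and 407.5 footprints. With the same floor of 3 counts, each was thus 17.9-fold lower or more. Their counted lengths ran from 39 to 35982, with a median of 314. The inputs again stood apart: 18 of the 30 (60%) reached under 25% of their naive RNA-seq level in the SBP-eIF4A1 inputs, against 104 of all 14866 (0.70%), and the median of input over RNA-seq was 0.031 against 0.99. In the SBP-eIF4A2 inputs 17 of the 30 were under 25%, against 34 of all 14866.

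A larger share of poorly translated transcripts in general was low in the inputs. So that no library entered both values, the SBP-eIF4A1 inputs were set against the RNA-seq of EIF4A1 KO cells, for transcripts with at least 20 reads over both RNA-seq libraries there. Of the poorly translated transcripts, 555 of 4345 (12.8%) were more than 2-fold lower in the input. Of all 23645 it was 1843 (7.79%), and of the efficiently translated it was 153 of 3017 (5.07%). The medians did not set the poorly translated transcripts apart: the median log2 difference was -0.053 in them, -0.062 in those of neither class and 0.34 in the efficiently translated ones. Spearman's rho was 0.13 over all. These values also differ by cell line, and the part of either in the ratio was not tested.

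The order of transcripts was largely the same in EIF4A1 KO cells, measured with 4 other libraries. Of the 3471 efficiently translated transcripts 3142 could be tested there, and 2722 of them (86.6%) were called higher, 1 was called lower and 419 were not called. Of the 4477 poorly translated transcripts 4014 could be tested, with 3253 (81.04%) called lower and 5 called higher. Over all 23206 transcripts tested in EIF4A1 KO cells, 27.8% were called higher and 30.2% lower, with 13.2% higher and 18.4% lower past 2-fold. Their median log2 ratios were 1.52 in naive and 1.41 in EIF4A1 KO cells for the efficient transcripts, and -1.58 and -1.66 for the poor ones. Across 22883 transcripts tested in both, Spearman's rho was 0.864, and 0.919 in those with at least 100 counts in each naive library. Whether a given transcript differed between the lines was not tested here.

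**Figure D3:**
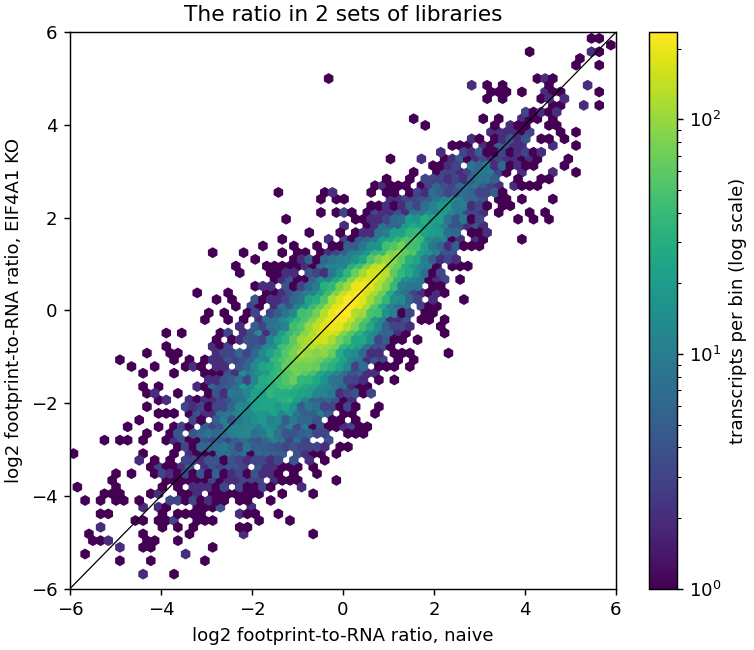
Log2 footprint-to-RNA ratio in EIF4A1 KO cells against that in naive cells for the 22481 of 22883 transcripts tested in both that lie within 6 log2 units of 0 on both axes, as counts per hexagon on a log color scale. The transcripts lie along the line of equal ratios over the whole range, with a Spearman rho of 0.864 over all 22883.

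Another set of libraries gave a like order. Footprints of EIF4A2 KO cells in DMSO were divided by the SBP-eIF4A2 inputs and centred on their median. This ratio was above 0 for 3277 of the 3471 efficiently translated transcripts (94.4%) and below 0 for 4232 of the 4477 poorly translated ones (94.5%). Its Spearman rho with the naive ratio was 0.78 across 24501 transcripts. When the SBP-eIF4A1 inputs took the place of the naive RNA-seq libraries under the naive footprints, 2114 of 3370 efficient transcripts and 2950 of 3850 poor ones were again called past 2-fold in the same direction. In that comparison 63 and 24 were called in the opposite direction. Over all 23517 transcripts tested there, 15.7% were called over 2-fold higher and 20.5% lower. This last comparison and the naive ratio use the same footprint libraries, so its counts are not independent of the naive calls.

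Long coding regions had fewer footprints per RNA than short ones. The unit of the deposited length is not stated. All 380 transcripts with a length of 0 or less had no count in any library, so it behaves as the length of the counted region. Among 665 transcripts over 1600 units long the median log2 ratio was -0.67, and 260 of them (39.1%) were poorly and 49 (7.37%) efficiently translated. Of all transcripts tested, 18.3% were poorly and 14.2% efficiently translated. Over 800 and up to 1600 the median was -0.41, and over 400 and up to 800 it was -0.18. The 3 classes over 50 and up to 400 stood at 0.057, -0.0059 and 0.020. Regions of up to 50 units had the highest median, 0.28, with 671 of 2356 (28.5%) efficiently and 351 (14.9%) poorly translated.

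The groups by length overlapped widely. Over all transcripts the Spearman rho of the ratio with length was -0.17. A short region needs a high footprint density to be counted, so the trend was also read in the 13051 transcripts with at least 100 reads in both SBP-eIF4A1 inputs, a choice made after seeing the data. There rho was -0.22, and -0.14 for the EIF4A1 KO ratio. The median was 0.21 for the 230 transcripts of up to 50 units, 0.15 for those over 100 and up to 200, and -0.57 for the 557 over 1600. In these 13051 transcripts the longest of 5 groups by length stood at -0.37 and the shortest at 0.15. With all 24501 tested transcripts ranked by length into 5 equal groups, the longest group (586 to 35982) stood at -0.40 and the shortest (2 to 81) at 0.17. Against the mean of the RNA libraries, footprint replicate 1 gave -0.38 and 0.22 for these groups, and replicate 2 gave -0.40 and 0.21. The 2 libraries therefore differed by far less than the groups did.

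Both densities were lowest in the longest group, without a steady fall before it. From the shortest to the longest group, median RNA density was 46.8, 41.4, 48.8, 42.03 and 30.2 CPM per 1000 units of length. Median footprint density was 55.004, 41.7, 49.6, 38.7 and 22.1. In EIF4A1 KO cells the direction was the same and the range smaller: medians of 0.036 and -0.28 for the shortest and longest group, with a rho of -0.094. The ratio of EIF4A2 KO footprints to SBP-eIF4A2 inputs gave 0.28 and -0.43, with a rho of -0.23.

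**Figure D4:**
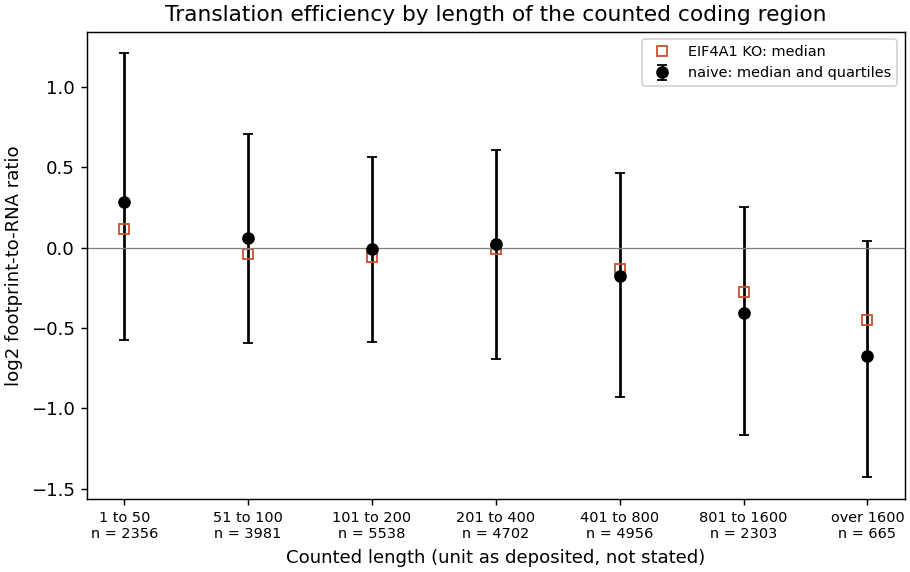
Log2 footprint-to-RNA ratio by length of the counted coding region, with the median and quartiles in naive cells (black) and the median in EIF4A1 KO cells (red squares), and the number of transcripts under each class. The naive median goes from 0.28 at up to 50 units to -0.67 above 1600, and the quartiles of neighbouring classes overlap.

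Translation efficiency also varied with the level of the RNA. Level was taken as reads per length in the SBP-eIF4A1 inputs, which enter no naive ratio. Over 5 equal groups from the lowest to the highest level, the median log2 ratio was -0.38, -0.17, -0.084, 0.031 and 0.18. The share of poorly translated transcripts fell from 30.4% to 10.4% over these groups, and that of efficiently translated ones was 17.4% in the lowest and 15% in the highest. Precision differs along this scale: the median SE of the log2 ratio was 0.43 in the lowest group and 0.082 in the highest. This SE was derived as the size of the log2 ratio over the square root of edgeR's F statistic. It is only a rough guide at low counts. The rho of the ratio with level was 0.16 over all, and 0.21 in the 13051 transcripts with at least 100 reads in both of these inputs. It was only 0.021 in the 7794 transcripts with at least 100 counts in each naive library, a set chosen mainly by footprints. The relation with level thus depended on which transcripts were counted.

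At each level the longest of the 5 length groups had the lowest median ratio. In the highest level group the medians were 0.18 for the shortest and 0.021 for the longest transcripts, and in the second lowest 0.14 and -0.45. In the lowest level group they were 0.90 and -0.81, but short and scarce transcripts may enter the test through their footprints alone, so that value is not comparable with the others.

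The most abundant mRNAs of all stood apart from the trend with level. The 100 transcripts with the highest density in the SBP-eIF4A1 inputs had a median log2 ratio of -0.50. By edgeR's test 71 of these 100 were called lower and 22 higher, with 23 and 3 past 2-fold. Of all transcripts tested 33.4% were called lower and 31.4% higher, with 18.3% and 14.2% past 2-fold. In the highest of the 5 level groups 1541 of 4900 were called lower and 2372 higher. The median of the 100 transcripts was -0.73 in EIF4A1 KO cells. Ranked by naive RNA density itself, the top 100 took 22% of all RNA counts and 13.6% of the footprints. These 100 were chosen by the denominator of the ratio, which lowers it, and are given as a description. Of the 100 transcripts with the highest footprint density, 66 were also among them.

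RNA-seq was more concentrated than footprints in its top 100 transcripts, but not by wider measures. In RNA-seq the 100 transcripts with the most counts held 23.9% of the counts in both naive libraries, and in footprints 19.2% and 19.6%. Yet a similar number of transcripts made up 50% of each library: 875 and 873 in RNA-seq, and 832 and 818 in footprints. In EIF4A1 KO cells the top 100 held 23.1% and 23.2% of the RNA counts, and 17.7% and 17.5% of the footprints.

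Poorly translated mRNAs were captured more with both eIF4A proteins. In the pulldown the tagged helicase is retrieved on streptavidin beads, and its RNA is compared with the input of the same cells, 2 libraries each. None of these libraries enters the naive ratio, and no pulldown without a tag was used here, so the part of binding to the beads themselves was not tested. With SBP-eIF4A2, the median log2 enrichment was 0.49 for poorly and -0.17 for efficiently translated transcripts. By edgeR's test 2196 of 4332 poor transcripts (50.7%) were called enriched and 652 (15.1%) depleted. Of the efficient transcripts 747 of 3233 (23.1%) were enriched and 1204 (37.2%) depleted. Over all 26600 transcripts tested in that pulldown, 29.8% were called enriched and 30% depleted.

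With SBP-eIF4A1 the difference was smaller. The median was 0.36 for poorly and -0.073 for efficiently translated transcripts. Called enriched were 1831 of 4332 (42.3%) and 844 of 3233 (26.1%), against 28.7% of all transcripts tested. Called depleted were 797 (18.4%) and 989 (30.6%), against 26.7%. Across 24018 transcripts the Spearman rho of the naive ratio was -0.15 with SBP-eIF4A1 enrichment and -0.25 with that of SBP-eIF4A2. With the ratio of EIF4A1 KO cells the rho values were -0.22 and -0.31. The difference between the proteins was not tested for these groups. Both pulldowns were enriched in the low end and flat in the upper part, where the 2 highest of 5 groups by ratio stood at -0.14 and -0.092 for SBP-eIF4A1 and at -0.26 and -0.21 for SBP-eIF4A2.

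Length moved with this result. Capture with SBP-eIF4A1 fell from a median of 0.15 in the shortest to -0.45 in the longest group by length, and with SBP-eIF4A2 from 0.082 to -0.25. The poorly translated transcripts were longer (median 356) than the efficient ones (152) and yet captured more. Among the longest transcripts, those with the lowest of 5 ratio groups had a median SBP-eIF4A1 enrichment of 0.16 and those with the highest -0.84, and for SBP-eIF4A2 0.55 and -0.70. Among the shortest, both ends were alike, at 0.25 and 0.35 for SBP-eIF4A1 and at 0.25 and 0.31 for SBP-eIF4A2. As a description across transcripts, capture fell along the ratio in long coding regions, while in the shortest group it was lowest between the ends.

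The median response to mTOR inhibition hardly followed baseline efficiency. It was read in EIF4A2 KO cells, whose footprint libraries enter no naive ratio, with 1 library per dose and hence no test. For 15517 transcripts with at least 20 footprints on average in DMSO, the median log2 change in the efficiently translated group was -0.041 at 1 µM and -0.049 at 10 µM. In the poorly translated group it was 0.066 and 0.045. The median difference between the DMSO libraries, replicate 1 minus 2 per transcript, was 0.012 and 0.0051 in these groups. Falls of more than 2-fold at 10 µM were seen for 65 of 2464 efficient (2.64%) and 45 of 1590 poor transcripts (2.83%), against 1.98% overall. At 1 µM the counts were 62 (2.52%) and 49 (3.08%), against 2.14% overall. Across transcripts the Spearman rho of the naive ratio was -0.091 with the change at 1 µM and -0.087 with that at 10 µM. Falls over 2-fold differed more in transcripts with at least 100 counts in each naive library. In the lowest of 5 groups by ratio they were 36 of 564 (6.38%) at 1 µM and 34 (6.03%) at 10 µM. In the highest they were 42 of 2029 (2.07%) and 37 (1.82%). The lowest group was also longer, with a median length of 738.5 against 311, and the part of either was not tested.

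Length moved with the PP242 change more than the ratio did. From the shortest to the longest group by length the median change at 10 µM was -0.15, -0.09, -0.049, 0.0055 and 0.096, and at 1 µM -0.16, -0.09, -0.056, 0.015 and 0.12. Only 1590 of 4477 poor transcripts reached the count needed for these values, against 2464 of 3471 efficient ones, so the poor group is represented by its more abundant members.

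**Figure D5:**
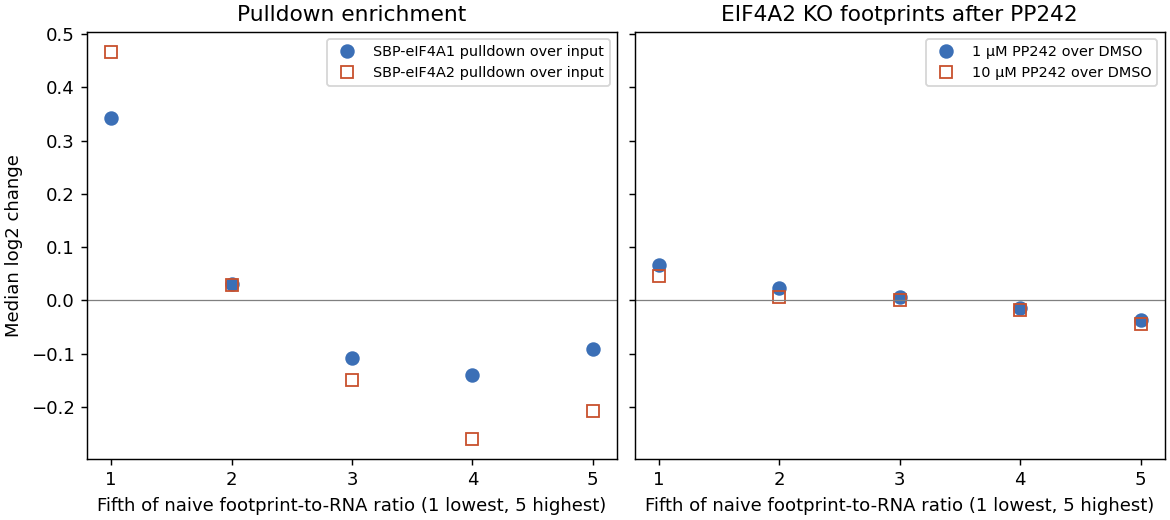
Median log2 change in 5 equal groups of transcripts ranked by the naive footprint-to-RNA ratio, for pulldown over input (left) and for EIF4A2 KO footprints after PP242 over DMSO (right), on a shared axis. Pulldown medians go from 0.34 (SBP-eIF4A1) and 0.47 (SBP-eIF4A2) in the lowest group to -0.092 and -0.21 in the highest, while all PP242 medians lie between -0.045 and 0.066.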

How the data were processed

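Each deposited file holds, without a header, a transcript ID, a length and a count. The authors' counts are whole numbers with no scaling. The deposited length has no stated unit (other). Base calls and alignment used CASAVA 1.8 and STAR 2.7.0a with build hg38, per the submitters' processing notes, and the counting tool and annotation are not given in the sources used here. Transcripts often had equal counts in every library. Of 227264 transcripts, 94734 had a count and 77343 had distinct counts. In order of total count, a transcript was dropped at a Pearson r of at least 0.9 (log2 CPM, pseudocount 0.5) with a kept transcript within 10 rows, leaving 35499.

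Footprints and RNA were compared with edgeR 4.0.16 in R 4.3.3 (TMM, filterByExpr with a minimum count of 10 and a total of 15, glmQLFit, glmQLFTest, two-sided, Benjamini-Hochberg adjustment over all transcripts tested), with DESeq2 1.42.0 as an alternative. The fit was checked on simulated data. Pulldown libraries were fitted in the same way, 8 together. PP242 changes are differences of log2 CPM with a pseudocount of 0.5. Intervals cover counting error only. Transcripts were named by a rule: the 2 highest and 2 lowest ratios among calls with a mean CPM of at least 10 averaged over both assays whose libraries do not overlap. The 4 libraries, this rule and the lists were chosen with earlier results of these data known.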

Additional observations from a re-analysis of the deposited data

How the results depend on the processing

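The 4 transcripts given by ID kept their direction and call in all 51 values that the alternatives gave, with log2 ratios of 5.94 to 12.2 in size and edgeR or DESeq2 adjusted p-values of up to 4.47e-11. The filters left some without a value: ENST00000589042.5 with the SBP-eIF4A1 inputs as the RNA libraries, ENST00000429738.1 at a length of at least 50, the other 3 than ENST00000589042.5 under the locus rule at 0.7, and all 4 with at least 100 counts in each library or 100 reads in both inputs. Leaving out a library gave 3209 to 3319 transcripts called over 2-fold higher, 3961 to 4223 lower, 6676 to 6988 called higher and 6924 to 7423 called lower. Of these, 2606 to 2688 and 3110 to 3177 were also called in EIF4A1 KO cells.

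The number of transcripts tested moved the counts. With at least 100 counts in each library the calls were 3076 higher and 3198 lower, 885 and 891 past 2-fold, of which 672 and 380 were also called in EIF4A1 KO cells. The EIF4A1 KO fit of this setting also needed 100 counts in each of its libraries. Transcripts left untested there are among those not called. With all distinct transcripts the calls were 22012 and 23786, 9793 and 13115, and 8571 and 10654. Transcripts with at least 100 reads in both SBP-eIF4A1 inputs, chosen after seeing the data, were scaled and fitted on their own. The calls were then 4913 and 5199, 1523 and 2066, and 1487 and 1975. A locus rule at a correlation of 0.7, chosen after seeing the data, gave 5092 higher, 2120 and 2858 past 2-fold, and 1698 efficient transcripts called in EIF4A1 KO cells. DESeq2 size factors, upper-quartile scaling, the DESeq2 Wald test, no filter and the joint fit of 8 libraries changed none of these counts by over 1.5 times. With DESeq2's Wald test 3158 of the 3471 efficient and 3417 of the 4477 poor transcripts kept their class.

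Between the longest and shortest groups by length the median log2 ratio differed by -0.565. It was -0.597 with at least 100 counts, -0.597 with all distinct transcripts, -0.526 with at least 100 reads in both inputs, -0.717 with the SBP-eIF4A1 inputs, -0.462 with a counted length of at least 50 (added after seeing the data), and -0.640 to -0.498 when a library was left out. Between the lowest and highest groups by ratio, SBP-eIF4A1 enrichment differed by 0.434. It was 0.664 with no filter, 0.342 with at least 100 counts, 0.608 with at least 100 reads in both inputs, 0.389 with the SBP-eIF4A1 inputs, which that enrichment shares, 0.399 with the locus rule at 0.7, 0.521 at a length of at least 50, and 0.396 to 0.501 without a library. For SBP-eIF4A2 the difference was 0.675, and under the same settings 1.04, 0.529, 0.854, 0.796, 0.618 and 0.769, 0.701 with all distinct transcripts, and 0.631 to 0.744 without a library. The cause of these shifts was not tested.

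Footprint and RNA libraries share replicate numbers but no label ties them. The deviations of same-numbered libraries correlated at 0.11 over 7794 transcripts, and with 2 pairs this does not show pairing. With the replicate block, 3460 transcripts were called over 2-fold higher and 4467 lower, 7764 higher and 8251 lower in all, and 3444 of 3471 efficient and 4446 of 4477 poor transcripts kept their class. The planned results for gene lists were not run, because no transcript was matched to a gene. Depth limits the low end: 10998 transcripts were untested.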
